A study of Mus musculus with 4 samples.

Results

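The accessible chromatin of Myc and of the neighbouring non-coding gene Pvt1 was described in mouse brain tumors by ATAC-seq, where a transposase cuts open DNA and leaves sequencing adapters at the cuts. Members were all peaks over the gene body of Myc or Pvt1 (GENCODE M21, mm10) with 10 kb on either side. Peaks of the libraries that shared at least 1 bp were merged into regions, which gave 42 regions here of 122166 in the genome, 3 around Myc and 39 around Pvt1. The locus was chosen by measured values of these same libraries, namely peak heights and local backgrounds that stood apart between the groups, so every WT and KO value below is a description and carries no test.

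The tumors grew from mG7080, a murine glioblastoma line, after intracranial injection into C57BL/6 mice. The host was either wild type (WT) or carried a deletion of Esm1 (ESM1-KO in the labels, KO here), the gene of the endothelial proteoglycan Endocan. There were 2 tumors and 2 libraries per group. The deletion is in the host, and the injected line is the same in both groups, so the tumor cells of the KO libraries keep their own Esm1 gene and no peak at that gene checks the group labels. Which libraries are WT and which are KO rests on those labels alone. All 4 tumors come from 1 cell line. The labels name tumor tissue as the source, the study's methods describe freshly isolated tumor cells, and its results speak of sphere cultures grown from such tumors. The study gives the hosts as young adult mice, with age ranges that differ between its methods and its reporting form. Both hosts were of the C57BL/6J substrain.

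MYC is a basic helix-loop-helix leucine zipper transcription factor that binds E-box DNA together with its partner MAX and drives genes of growth, ribosome production and metabolism. Its gene is kept under tight control in normal tissue and is a frequent driver of cancers, gliomas included. Pvt1 is a long non-coding RNA gene that lies downstream of Myc on the same strand. Its body holds enhancers that can contact the Myc promoter, its own promoter can compete with that of Myc for them, and the 2 genes are often amplified together in tumors. ATAC-seq reads accessibility of DNA, not transcription, and in a bulk library more copies of a stretch of DNA and greater access per copy cannot be told apart.

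Myc lies at chr15:61985391-61990374 (plus strand, ENSMUSG00000022346.15) and Pvt1, a lincRNA gene, at chr15:62037986-62378096 (plus strand, ENSMUSG00000097039.8). The sequences of the intronic Pvt1 regions on which the comparison turned are shown first, on the plus strand of GRCm38. Each holds 151 bases around the summit of the peak that was tallest relative to library depth. Capitals mark matches to 7 short motifs searched on both strands. The intronic regions 5.6 kb and 40.7 kb after the Pvt1 start (chr15:62043928-62044078 and chr15:62079224-62079374) had peaks in all 4 libraries.
Intron +5.6 kb: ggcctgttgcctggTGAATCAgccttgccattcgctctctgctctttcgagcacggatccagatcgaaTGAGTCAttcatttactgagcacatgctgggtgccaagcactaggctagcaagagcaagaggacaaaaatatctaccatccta
Intron +40.7 kb: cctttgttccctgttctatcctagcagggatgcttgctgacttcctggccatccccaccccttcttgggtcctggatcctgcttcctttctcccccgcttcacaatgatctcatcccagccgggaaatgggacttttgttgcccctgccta
The region 98.8 kb after the start (chr15:62137385-62137535) had a low peak in 1 WT library and high peaks in both KO libraries.
Intron +98.8 kb: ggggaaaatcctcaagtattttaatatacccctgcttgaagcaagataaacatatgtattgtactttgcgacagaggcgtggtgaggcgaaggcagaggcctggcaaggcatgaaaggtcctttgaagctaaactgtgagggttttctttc
The regions at 68.4, 168.4 and 172.0 kb (chr15:62106684-62106834, chr15:62206581-62206731 and chr15:62210053-62210203) had a peak in both KO libraries and in neither WT library.
Intron +68.4 kb: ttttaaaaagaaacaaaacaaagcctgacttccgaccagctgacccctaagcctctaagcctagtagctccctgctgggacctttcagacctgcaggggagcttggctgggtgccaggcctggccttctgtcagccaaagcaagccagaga
Intron +168.4 kb: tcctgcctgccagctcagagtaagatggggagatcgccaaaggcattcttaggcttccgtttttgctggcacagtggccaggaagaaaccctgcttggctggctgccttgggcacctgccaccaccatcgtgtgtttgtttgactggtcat
Intron +172.0 kb: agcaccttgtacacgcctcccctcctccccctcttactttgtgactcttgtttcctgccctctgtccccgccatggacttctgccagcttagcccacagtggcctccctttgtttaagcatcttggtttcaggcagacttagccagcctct
The region 107.3 kb after the start (chr15:62145476-62145626) was the only one with a peak in both WT libraries and in neither KO library.
Intron +107.3 kb: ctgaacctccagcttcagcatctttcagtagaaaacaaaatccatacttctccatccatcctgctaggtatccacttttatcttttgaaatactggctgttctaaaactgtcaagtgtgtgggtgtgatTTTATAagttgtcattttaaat

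The motifs were the E-box CACGTG of MYC and MAX, the AP-1 site TGANTCA, the octamer ATTTGCAT, the SP/KLF box GGGCGG, the CCAAT box, the TATA box TATAAA and the core of the CTCF motif. The window at 5.6 kb held 2 AP-1 matches, and 8.08% of 48054 windows of the same length at regions shared by all 4 libraries held at least 1. The WT-only window held 1 TATA box match on the minus strand, as 6.41% of all windows held one on either strand. The other 5 windows held none of the 7 motifs. The E-box occurred in 3.55% of all windows and in none of these 7. The GC content of the WT-only window was 36.4%, below that of the 3 KO-only windows at 54.3, 55.6 and 55.6%. No GC content over all windows was at hand, so nothing is read from this gap. The WT-only window is centred on the summit of WT replicate 1, and that of WT replicate 2 lay outside it. In the window at 172.0 kb the summit of KO replicate 1 lay outside. The table of promoter sequences used here held no entry for Myc or Pvt1.

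The 4 peak lists, given throughout in the order WT replicates 1 and 2 and then KO replicates 1 and 2, numbered 63000, 100088, 82975 and 85418 peaks. The files hold no read counts, but the fold and the p-value of a peak give back its height in read ends and its local background. The lowest local background of a library was taken as its genome background, which came to 4.41, 6.85, 6.03 and 6.71 read ends and stands for relative depth. The span from shallowest to deepest library was 1.55 times, and heights were divided by this value (normalised height) before libraries were set side by side. Of 10 glial and glioma markers 8, 7, 7 and 9 had a promoter peak, with summed normalised heights of 48.8 to 68.9 in WT and 51.9 to 87.2 in KO and none at Cspg4. Of 6 endothelial markers 1, 3, 1 and 2 had one (summed heights of 4.98 to 10.4 in WT and 4.65 to 8.05 in KO, none at Pecam1, Cdh5 or Tek), and of 6 markers of microglia and macrophages 0, 1, 1 and 2 had one (0 to 6.13 in WT and 5.97 to 9.98 in KO, none at Csf1r, Cx3cr1, P2ry12 or Adgre1). For each of the 3 lists the range of the summed heights overlapped between the groups.

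The promoter of Myc was open in every library, and its peak stood higher over the genome background in KO than in WT. The region over the start site (chr15:61984300-61985913) reached 64 and 89 read ends in the WT libraries, whereas it reached 185 and 223 in KO. Normalised heights were 14.5, 13.0, 30.7 and 33.2, so the WT pair lay close together, the KO pair lay close together and the groups did not overlap. The KO mean on the log2 scale was 1.22 above that of WT, a ratio of 2.33. Relative to the annotated start the summit sat at +64 and +32 bp in WT and at -76 bp in each KO library. That is a spread of 140 bp over the libraries, where the median spread over all regions shared by all libraries was 110 bp.

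The local background under this peak was higher in KO as well, and by more than the peak itself. It is the density of read ends in the 10 kb around the summit, and this window held 953 and 1392 read ends in WT against 4321 and 5367 in KO. Relative to the genome background that is 4.32 and 4.07 in WT and 14.3 and 16.0 in KO. The fold of the peak over its local background was therefore lower in KO, at 2.13 and 2.07, than in WT, at 3.24 and 3.12. The sign of the difference at the Myc promoter thus depends on whether height is read against the genome or against its own surroundings.

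The other regions of Myc had the same pattern. The second lies over the coding exons (chr15:61986607-61988387) with heights of 53, 83, 192 and 218 read ends across the 4 libraries. Normalised, these were at most 12.1 in the WT pair and 31.9 and 32.5 in the KO pair. In WT replicate 1 this stretch was split into 2 peaks, the lower of them 43 read ends high. The third lies upstream of the gene (chr15:61983299-61983719), overlaps the annotated gene Gm37947, and had heights of 56, 77, 139 and 176. Its log2 difference of 1.04 was the lowest of the regions shared by all libraries, and its fold was 2.90 and 2.80 in WT and 1.62 and 1.70 in KO. Its summit lay between -1852 and -1815 bp relative to the Myc start in all 4 libraries.

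Across protein-coding genes with a promoter peak in all 4 libraries, Myc moved from the middle of the height distribution in WT to its top in KO. The tallest peak within 1000 bp of a Myc start stood at percentile 47.5 and 52.1 of 13310 genes in WT and at 99.9 in both KO libraries. In KO replicate 1 this was the peak over the coding exons, at 192 read ends against 185 over the start site. In the other libraries it was the peak over the start site. The log2 difference of the tallest peak was 1.25, a ratio of 2.37, while the median over all genes was -0.11. Myc was rank 2 in this ordering, after Foxf1 at 1.31. Both KO heights lay above both WT heights in 3.76% of these genes, and since the locus was chosen for such a difference nothing is read from that share. The genes whose promoter heights varied over the 4 libraries most like those of Myc, by Euclidean distance of centred log2 heights, were Dynlt1b (0.51), Irf7 (0.51), Slc27a6 (0.57), Socs3 (0.59) and Gbp3 (0.62), with log2 differences of 0.72 to 0.97. Dynlt1b belongs to a cluster of near-identical copies, so its peak is uncertain.

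The promoters of the proteins that work with or beside MYC were counted in the same way. Of 12 genes of the network, 11 had a promoter peak in all 4 libraries, and Mlxipl had one in 3. None of the 11 had both KO heights above both WT heights, where 3.76% of all genes did, a share that 0 of 11 is near. Both KO heights were below both WT heights in 2 of the 11, where 27.5% of all genes were so. These were Mxd1 and Mxi1, which encode MAX partners that oppose MYC. The log2 differences ran from -0.29 to 0.07 with a median of -0.08, close to that of all genes. At Max itself, the obligate partner, the WT libraries stood at a normalised 31.7 and 25.3 and the KO libraries at 25.4 and 21.2, which overlap. The paralog Mycn, a driver of neural tumors, had 11.8 and 11.0 in WT and 10.1 and 12.2 in KO, which also overlap.

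The promoter of Pvt1 (chr15:62036957-62039271, over its first exon) differed more than that of Myc. Its peak was 39 and 54 read ends high in the WT libraries, as against 160 and 197 in KO, and normalised heights were 8.83, 7.89, 26.6 and 29.4. Neither pair overlapped the other, and the log2 difference was 1.74, a ratio of 3.34. The 10 kb around it held 407 and 610 read ends in WT and 2902 and 3626 in KO, and the fold over this background was 4.38 and 4.17 in WT and 2.73 and 2.69 in KO.

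**Figure D1:**
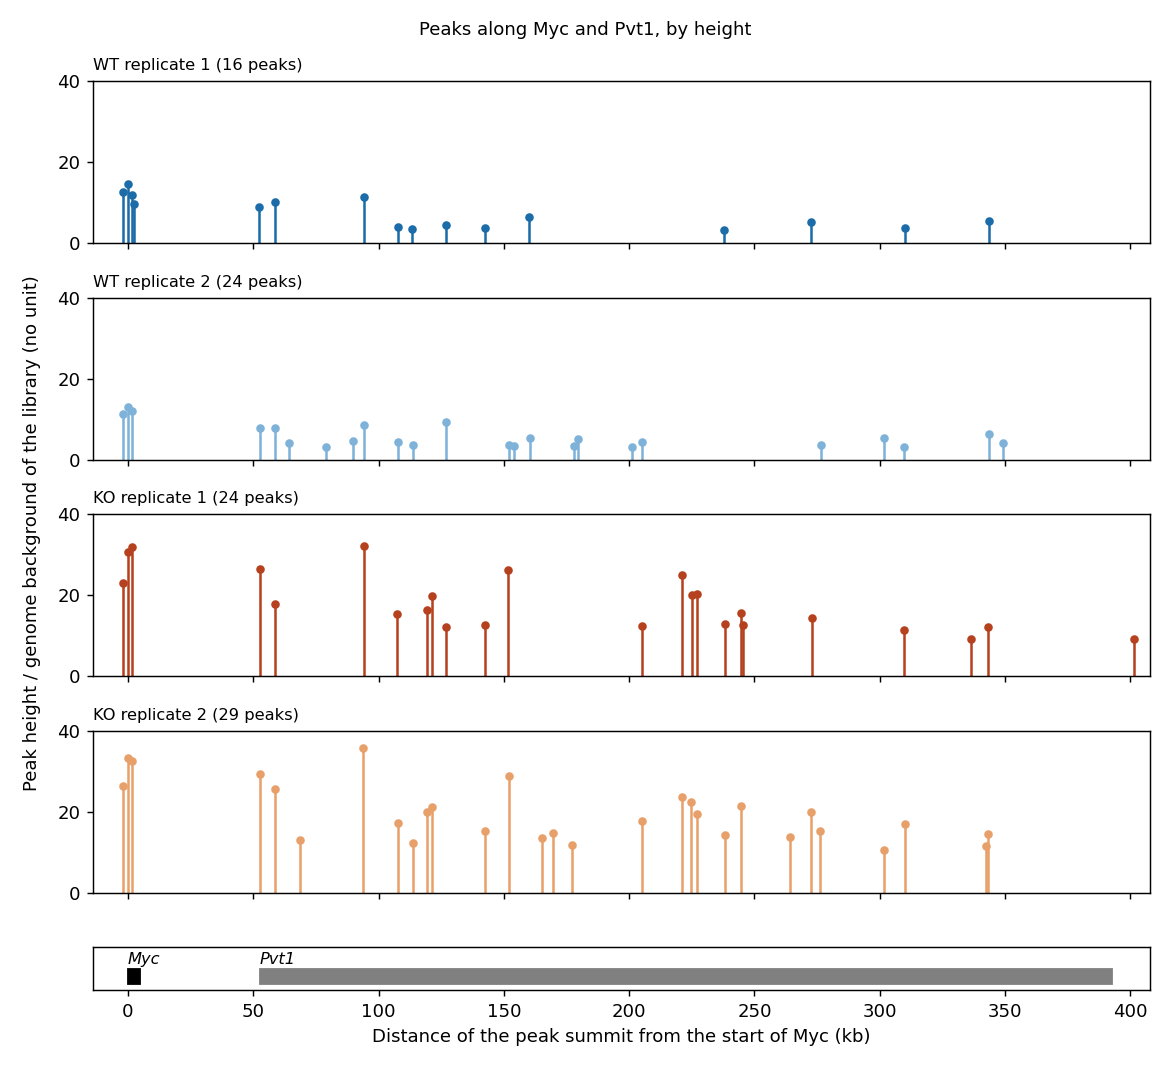
Normalised height of each peak (height over the genome background of its library) against the distance of its summit from the start of Myc in kb, 1 panel per library, with the gene bodies of Myc and Pvt1 below. The tallest peaks reach 14.5 and 13.0 in WT replicates 1 and 2 and 32.2 and 35.8 in KO replicates 1 and 2, and relative to the raised local background in KO the order of the groups turns round.

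Within Pvt1, 2 further regions annotated as alternative start sites were weaker and not called everywhere. The one 60.8 kb after the gene start (chr15:62098824-62099120) had 15 and 24 read ends in WT, no peak in KO replicate 1 and 82 in KO replicate 2. The one at 184.8 kb (chr15:62222787-62223849) had 14 in WT replicate 1, no peak in WT replicate 2, and 77 and 95 in KO.

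The intronic region 40.7 kb after the Pvt1 start (chr15:62078717-62080623, overlapping Gm27782) was the tallest intronic one in every library except WT replicate 2 and was the tallest of the locus in both KO libraries. Heights were 50, 59, 194 and 240 read ends, with normalised heights of 11.3, 8.62, 32.2 and 35.8. The log2 difference was 1.78, and the fold was 6.34 and 4.93 in WT against 3.32 and 3.08 in KO. Its -log10 q, which grows with depth, was the highest of the locus in KO at 41.2 and 45.8.

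The region with the 2 AP-1 matches, 5.6 kb into the gene (chr15:62043566-62044671), had heights of 45, 54, 108 and 171 read ends and normalised heights of 10.2, 7.89, 17.9 and 25.5. The KO libraries were further apart here than at the promoters, but both lay above both WT libraries. Its fold was 5.36 and 5.01 for WT against 2.08 and 2.47 for KO.

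Of the distal shared regions, the one 257.0 kb after the start (chr15:62294964-62295941) had the highest difference among the 9 regions with a peak in all 4 libraries. Its heights were 16 and 22 read ends in WT, just over the lowest heights called, and 68 and 113 in KO, a log2 difference of 2.01 and a ratio of 4.04. The shared regions at 54.4 kb and 290.2 kb had log2 differences of 1.94 and 1.16.

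Over the 9 regions with a peak in all 4 libraries, both KO heights were above both WT heights in 9 of 9, against 6.21% of 48089 such regions in the genome. Both KO local backgrounds were above both WT backgrounds in 9 of 9, against 8.39%, and both KO folds were below both WT folds in 9 of 9, against 24.8%. Since the choice of the locus used these contrasts, the counts describe it and support nothing. The median log2 difference was 1.42 in height, 2.53 in local background and -0.73 in fold, where the medians over all shared regions were -0.10, 0.00 and -0.07. The 99th percentile of height differences over all shared regions was 0.50, below the lowest value of 1.04 among the 9.

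**Figure D2:**
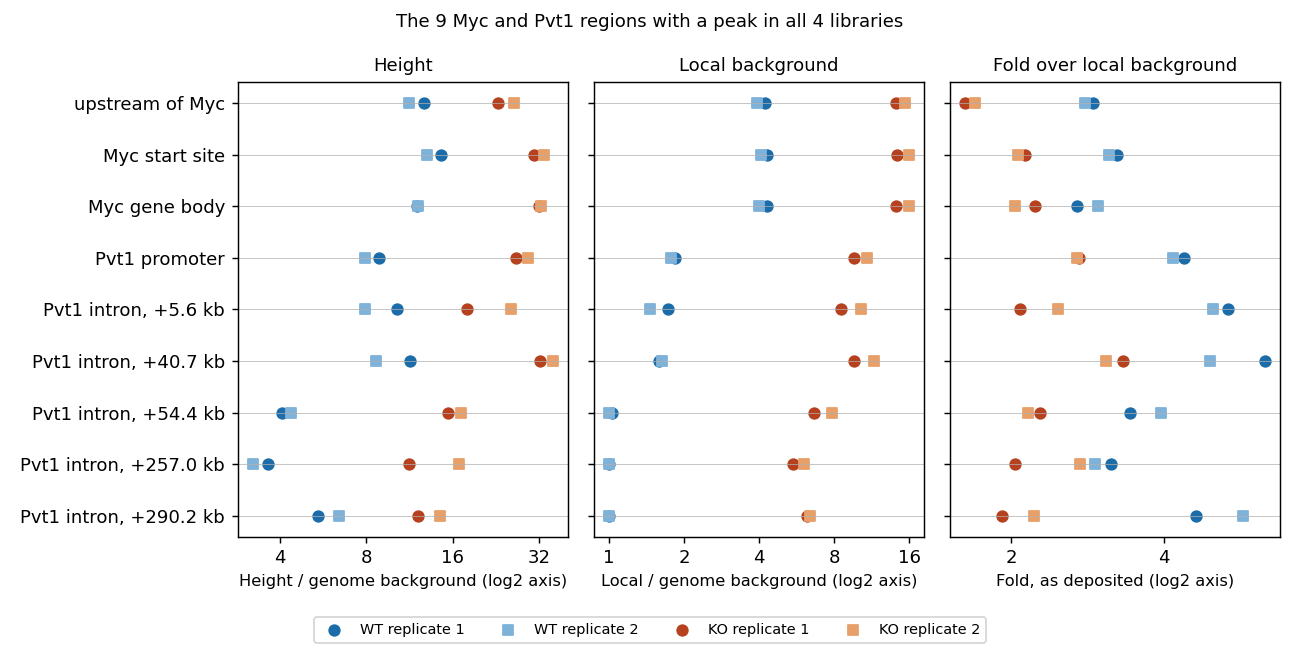
The 9 regions with a peak in all 4 libraries, in order along the chromosome, with normalised height (left), local background over genome background (middle) and deposited fold over local background (right), all on log2 axes, 1 point per library. KO points lie right of WT points for height and background and left of them for fold in all 9 regions.

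The higher local background in KO was found not only at the promoters but at every Pvt1 peak called in KO. Over the Pvt1 peaks its median was 1.06 and 1.00 times the genome background in WT and 7.80 and 8.25 times in KO. The lowest value in KO was 4.35 and 5.45, above the highest in WT of 1.84 and 1.78. In WT, 5 of 12 and 11 of 21 Pvt1 peaks sat at the genome background itself, and in KO 0 of 21 and 0 of 26 did. The genome background is the lowest value that a local background takes. The 10 kb around these WT peaks may thus hold fewer read ends than that value states. Background differences of KO over WT are lower limits there. Peaks elsewhere on chromosome 15 had medians of 1.32 and 1.24 for WT and 1.24 and 1.26 for KO, and there the groups overlapped. A local background of 2 or more times the genome level was found at 4 of 16, 3 of 24, 24 of 24 and 29 of 29 peaks of the locus, and at 19.9, 16.4, 16.4 and 17.5% of all peaks.

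Along Pvt1 the background in KO varied and was lowest in the distal part. In the first 20 kb and the upstream flank the median was 9.08 and 10.2 times the genome background in KO replicates 1 and 2 (1.78 and 1.46 in WT). In the long middle stretch it was 7.90 and 8.40 (1.06 and 1.03 in WT), and there, at the KO-only region at 172.0 kb, it reached its highest value on Pvt1, 11.8 and 12.5. In the distal part with the downstream flank it was 5.11 and 6.24 (1.00 and 1.00 in WT). Within the gene the last peaks of KO replicates 1 and 2 ended at chr15:62329191 and chr15:62329288. Beyond them the gene body has no KO value. The limits of these stretches were set after the values were seen.

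**Figure D3:**
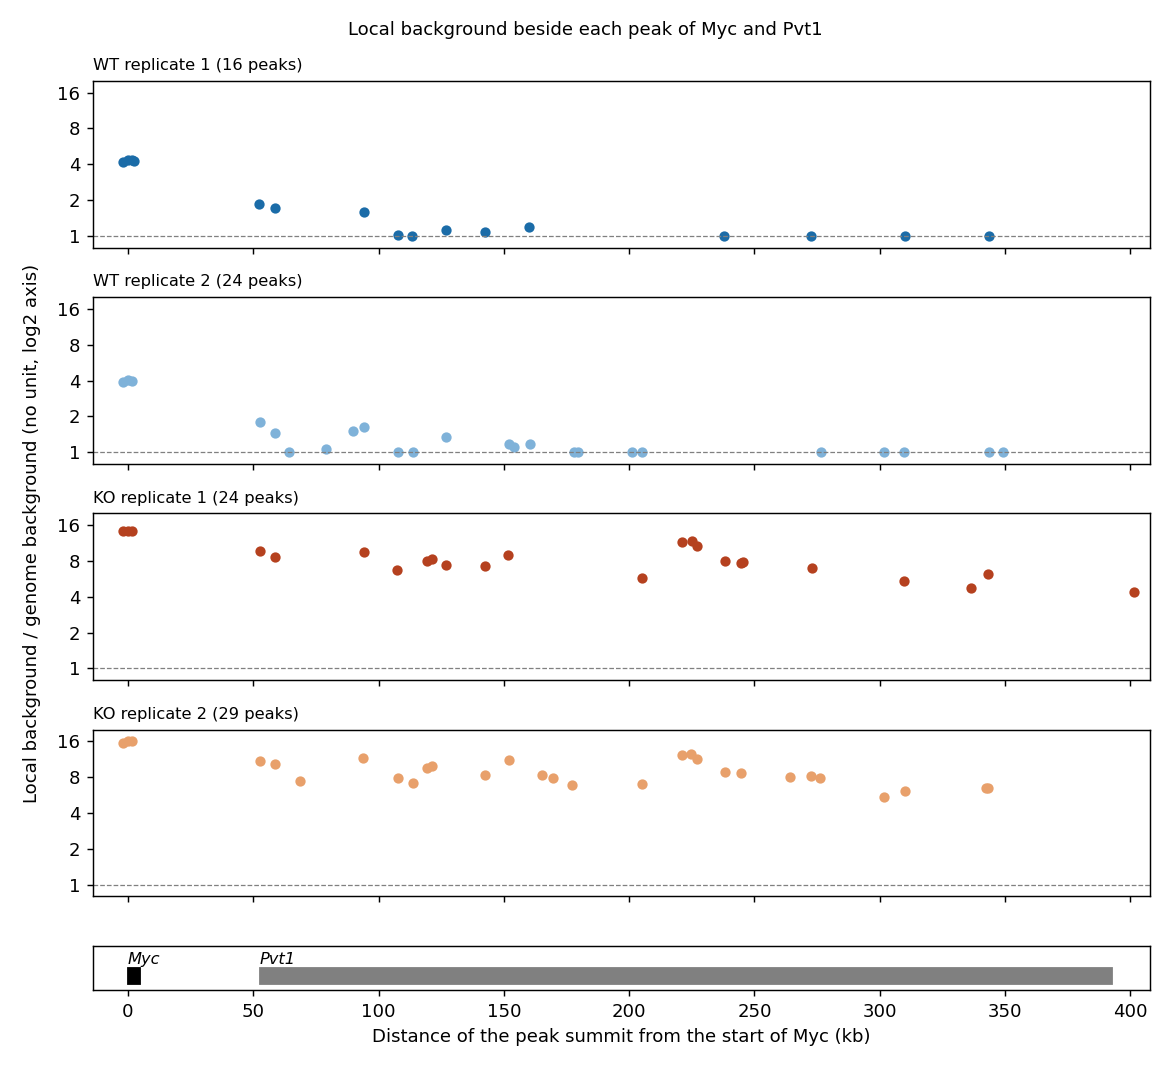
Local background beside each peak as a multiple of the library's genome background (log2 axis, dashed line at 1), against distance of the summit from the start of Myc in kb. WT points along Pvt1 lie between 1 and 1.84, and KO points between 4.35 and 12.5.

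The raised background also set which peaks could be called. At the genome background a peak of 13, 16, 15 and 16 read ends was enough in the 4 libraries. At the lowest local background of a Pvt1 peak the KO libraries needed 44 and 57 read ends, and at the median 70 and 80, which is 11.6 and 11.9 times their genome background. A region as high as most WT peaks of Pvt1, whose normalised heights ran from 3.17 to 11.3 and from 3.07 to 9.20, could thus be missed in KO. For height over the genome background, absence of a Pvt1 peak in a KO library was therefore less informative than absence in a WT library. This does not carry over to the fold over local background. Called Pvt1 peaks had folds down to 1.60 in both KO libraries and down to 2.77 in both WT libraries.

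There were 6 KO-only regions, all in introns of Pvt1 and none at Myc, against 1.66% of all regions in the genome. Leaving out 1 library at a time gave 8 to 12 such regions, with 12 without KO replicate 1 and 10 without KO replicate 2. For settings with a library left out, no share over all regions was at hand, so nothing is read from their counts. The tallest of the 6, 168.4 kb after the start (chr15:62206364-62207005), had 150 and 158 read ends in KO replicates 1 and 2, or 24.9 and 23.5 times the genome background. It sat on a local background of 11.6 and 12.3 times, and its fold was 2.13 and 1.91. Close by, the regions at 172.0 kb and 174.3 kb had 121 and 151 and 122 and 131 read ends. The region at 68.4 kb (chr15:62106429-62106955) had 120 and 142. The lower KO height of these 6 regions was 5.30 to 7.99 times the lowest height that WT libraries could call. A peak of that height over the genome background would thus have been called in WT. By fold over local background, these 6 regions stood at 1.69 to 2.46 in KO. The Pvt1 peaks of both WT libraries had folds of at least 2.77. At the genome background, WT replicates 1 and 2 needed heights of 2.94 and 2.34 times that background to call a peak. Peaks with folds as low as most of these could thus be missed in WT. By fold, absence of these regions in WT was therefore less informative than by height.

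The single WT-only region lay 107.3 kb after the Pvt1 start (chr15:62145325-62146126), against 1.45% of all regions. With WT replicate 1, the shallowest library, left out, the locus had 9 WT-only and 9 KO-only regions, and without KO replicate 1 or KO replicate 2 there were 2 WT-only regions. The WT-only region had 28 and 36 read ends in WT replicates 1 and 2, normalised heights of 6.34 and 5.26, and a fold of 4.60 and 4.07. These heights are under the 7.30 and 8.49 times that the KO libraries needed even at their lowest Pvt1 background. Read as height over the genome background, the loss of this region was thus not detectable in these lists. By fold over local background the reading differs. Both KO libraries called Pvt1 peaks with folds down to 1.60, so a peak with the WT folds of this region would have been called there.

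The remaining 26 regions were called in other combinations. In 7 there was a peak in 3 libraries, of which the tallest in KO was the region at 98.8 kb (chr15:62136755-62137955) with 24 read ends in WT replicate 2 and 158 and 194 in KO, or 3.50, 26.2 and 28.9 times the genome background. Another of the 7 was the intronic region at 73.7 kb (chr15:62111674-62112672). Its heights were 20 and 63 read ends in WT and 73 in KO replicate 1, or 4.53, 9.20 and 12.1 times the genome background. KO replicate 2 had no peak there, but at its median Pvt1 background it needed 11.9 times the genome background to call one. The region held the tallest Pvt1 peak of WT replicate 2, with a fold of 6.23 and a -log10 q of 28.1. Its fold in KO replicate 1 was 1.63. In 2 regions WT replicate 2 and KO replicate 2 had a peak. In 17 there was a peak in 1 library alone, 8 in WT replicate 2, the deepest library, 3 in KO replicate 1, 6 in KO replicate 2 and 0 in WT replicate 1, the shallowest. The single-library peaks of WT replicate 2 were 21 to 35 read ends high, and those of the KO libraries 55 to 99. Peaks in all 4 libraries made up 21.4% of the regions here and 39.4% of all regions. For the other combinations of this paragraph no share over all regions was at hand, so nothing is read from their counts.

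As a whole the locus ranked differently by height and by fold. The median normalised height of its peaks was 5.89 and 4.45 in WT, at percentile 47.4 and 41.1 of all peaks, and 16.0 and 17.7 in KO, at percentile 96.4 and 97.4. The median fold was 3.33 and 3.44 in WT, at percentile 26.8 and 47.3, and 2.04 and 1.92 in KO, at percentile 0.500 and 0.349. Peaks of Pvt1 had folds of 2.77 to 6.34 and 2.77 to 6.23 in WT and of 1.60 to 3.32 and 1.60 to 3.08 in KO. Median peak widths were 477, 579, 558 and 595 bp, and those of all peaks 431, 485, 470 and 453 bp.

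Dividing heights by the background of the locus in place of that of the genome turned the order of the groups round. Over the median local background of the Pvt1 peaks, the tallest Myc promoter peak stood at 13.7 and 13.0 in WT and 4.09 and 4.03 in KO. The Pvt1 promoter stood at 8.35 and 7.89 in WT and 3.41 and 3.56 in KO. Over the lowest local background the values were 14.5, 13.0, 7.32 and 6.09 for Myc and 8.83, 7.89, 6.10 and 5.38 for Pvt1. WT was thus higher on both of these scales and KO on the scale of the genome background. Read ends in peaks themselves count toward the local background.

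**Figure D4:**
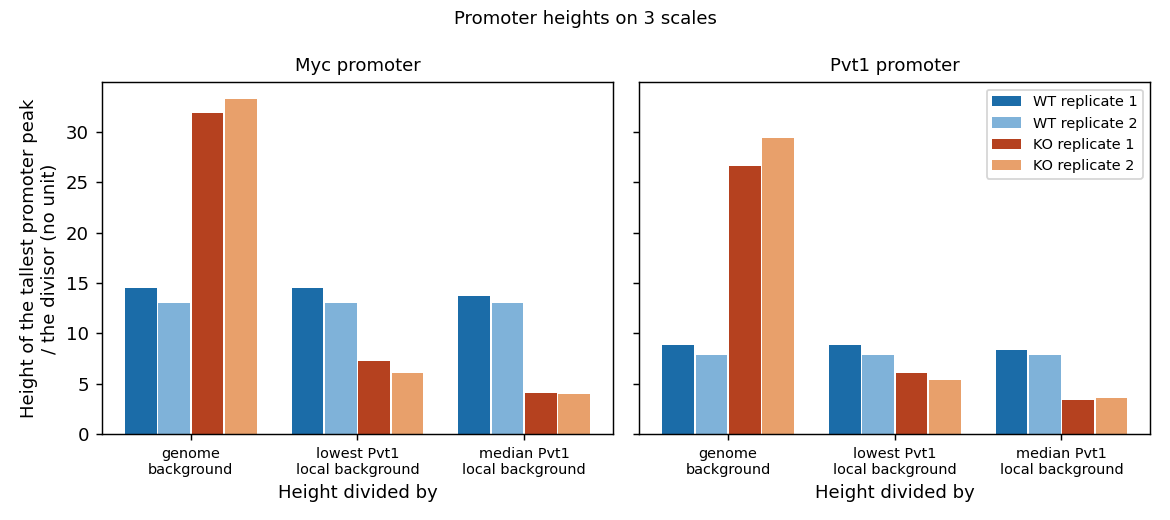
Height of the tallest peak within 1000 bp of a start site of Myc (left) and Pvt1 (right), divided by the genome background, the lowest or the median local background of the Pvt1 peaks of the same library, 1 bar per library. On the first scale KO reaches 31.9 and 33.2 at Myc against 14.5 and 13.0 in WT, and on the other scales WT is higher. For Myc in KO replicate 1 the tallest peak is the one over the coding exons.

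Peaks of KO libraries were also found just outside the windows. Between the Myc and the Pvt1 windows lay 2 regions, 1 called in KO replicate 1 and 1 in KO replicate 2, with none in WT. The nearest region before the locus (chr15:61974089-61974773) had 75 and 88 read ends in KO and no WT peak, and the nearest after it (chr15:62392852-62393324) had 51 in KO replicate 1 alone. The last region inside the windows (chr15:62386531-62386785, downstream of Pvt1) had 55, also in KO replicate 1 alone, and the first inside is the one upstream of Myc given above.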

How the data were processed

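ATAC-seq libraries of 2 WT and 2 KO tumors were grouped by their titles. Peak calling was done sample by sample, and the authors deposited a list for each library. MACS2, HOMER and mm10 are named, without versions, in the submitters' processing notes, and the study's methods describe alignment with Bowtie2 to GRCm38, filtering of duplicates and mitochondrial reads, and Genrich in its ATAC-seq mode. Whether the deposited lists come from that mode or from MACS2 with shifted reads was not given in the sources used here. The columns were read by the arithmetic of MACS2, and all 331481 peaks could be solved that way. The deposited columns used are a ratio (fold over local background), the −log10 p-value, the −log10 q-value and a score derived from the latter, all from the authors' peak caller.

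The files hold no read counts. Height and local background were solved from the fold and the p-value (a Poisson tail) for all of 331481 peaks, within 0.001 of the deposited −log10 p, after a check on simulated peaks. Local backgrounds above the genome level were whole multiples of 0.02, which is 200 bp over 10 kb, so the read ends in 10 kb were recovered. Promoters of protein-coding genes reached 1000 bp to each side of 41505 GENCODE M21 basic start sites. The start-site regions of Myc and Pvt1 were set by the starts of all their annotated transcripts, with the same reach. Peaks enter with a q-value under 0.05, and a region without a peak has no height.

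The members, lists and settings were chosen with earlier results of these data known. No test was made. Regions named in full were those over start sites, the 6 with the highest lower-of-4 normalised height, those with the highest and lowest difference, and the tallest KO-only and WT-only ones. The regions at 73.7 and 98.8 kb, those at 54.4 and 290.2 kb and the regions just outside the windows were added after their values were seen. Stricter peaks, equal peak numbers, other overlap and scaling rules and leaving out each library were tried as alternatives. The scalings by the background of the Pvt1 peaks were chosen after seeing the data. Python 3.11.15, numpy 2.4.6, scipy 1.17.1, pandas 2.3.3 and matplotlib 3.10.9 were used.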

Additional observations from a re-analysis of the deposited data

How the results depend on the processing

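No paired analysis was possible because the values come from no test, and the numbers in the titles tie no WT tumor to a KO tumor. Of 74 alternative values for 8 results, 51 stayed within the spread between libraries (for counts, near the main count), 17 moved beyond that and 6 turned in sign. The sign turned under the scalings by the background of the Pvt1 peaks, chosen after seeing the data. With the median background, both KO heights were above both WT heights in 0 of 9 regions, and the log2 height difference, KO minus WT, was -1.55 in the median, -1.72 at the Myc promoter and -1.22 at the Pvt1 promoter. With the lowest background the values were 0, -0.87, -1.04 and -0.54. Why the scalings differ in sign lies in their construction, since the KO divisor holds the raised background.

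With peaks of a −log10 q of at least 5, the background difference was 2.18 (2.53 in the report). Equal peak numbers gave 2 WT-only regions in place of 1. With a required cover of 50% of a region by each library there were 2 WT-only regions, both KO heights above in 5 of 5 regions shared by all libraries, and a median height difference of 1.74 (1.42 in the report). Division by the median height at shared regions gave 1.34 at the Myc promoter (1.25 in the report). No share over all regions was at hand for the settings of this paragraph, so nothing is read from their counts.

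Leaving out 1 library at a time gave 8 to 12 KO-only regions (12 without KO replicate 1, 10 without KO replicate 2, 6 in the report) and 1 to 9 WT-only regions (9 without WT replicate 1, 2 without either KO library). All KO heights were above all WT heights in every region shared by the remaining libraries, 10 to 12 regions. With a library left out no share over all regions was at hand. The locus was also chosen for this contrast, so nothing is read from these counts. The median differences ran from 1.28 to 1.81 in height, 2.44 to 2.66 in background and -0.76 to -0.62 in fold, and the promoters from 1.17 to 1.32 (Myc) and 1.66 to 1.82 (Pvt1). Depth limits the lists at 13 to 16 read ends at the genome background, and 2 tumors per group limit what can be said of their spread.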
